A study of Mus musculus with 29 samples.

Results

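Armc10 and Napepld are the first 2 expressed genes inside the proximal edge of the 5A3 deletion, a heterozygous loss of the mouse interval that corresponds to part of human chromosome 7q22. They were taken by gene symbol as 2 of the 30025 genes of the deposited table and were followed through all 29 RNA-Seq libraries. The libraries came from sorted bone marrow cells of 5 WT (genotype WT/WT) and 5 5A3+/del (genotype WT/DEL) mice of strain C57BL/6J, aged 12.42 to 13.85 weeks. The cells were lineage-, c-kit+, Sca1+, CD41- and CD48- and were divided by CD150 into CD150hi HSC (hematopoietic stem cells), CD150lo HSC and CD150neg MPP (multipotent progenitors), the last being labelled CD150neg HSC in the sample descriptions. Each genotype and population had 5 libraries, except 5A3+/del CD150neg MPP with 4. The deletion is germline and was made by Cre in embryonic stem cells that carried loxP and HPRT sequences next to Fbxl13 and Srpk2, so every cell of a 5A3+/del mouse, in blood and elsewhere, carries it together with any such sequence left at the joined edges. Values are FPKM, fragment counts divided by exon length and by the size of the library, as deposited unless stated otherwise.

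Armc10 encodes an armadillo repeat protein of the mitochondrial outer membrane. It is known to bind the Miro and TRAK adaptors that link mitochondria to motor proteins, to be a substrate of AMPK and, in its human form, to bind p53. Napepld encodes a membrane-bound zinc phospholipase D that cleaves N-acyl-phosphatidylethanolamines and so releases N-acylethanolamines, among them the endocannabinoid anandamide. In the bone marrow, endocannabinoids are known as lipid ligands of receptors on blood and stromal cells.

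In the GENCODE annotation of mm9, Armc10 (ENSMUSG00000038525) lies on the plus strand of chromosome 5 from 21151631 to 21168512, with 3407 bp of exon. Napepld (ENSMUSG00000044968) lies on the minus strand from 21168719 to 21207214, with 3956 bp of exon. Their 3' ends face each other across 206 bp. The annotated start of Armc10 is 207 bp from that of Fbxl13, which is transcribed the other way, out of the deletion. The start of Napepld is 35744 bp from that of Pmpcb, the next expressed deleted gene.

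**Figure D1:**
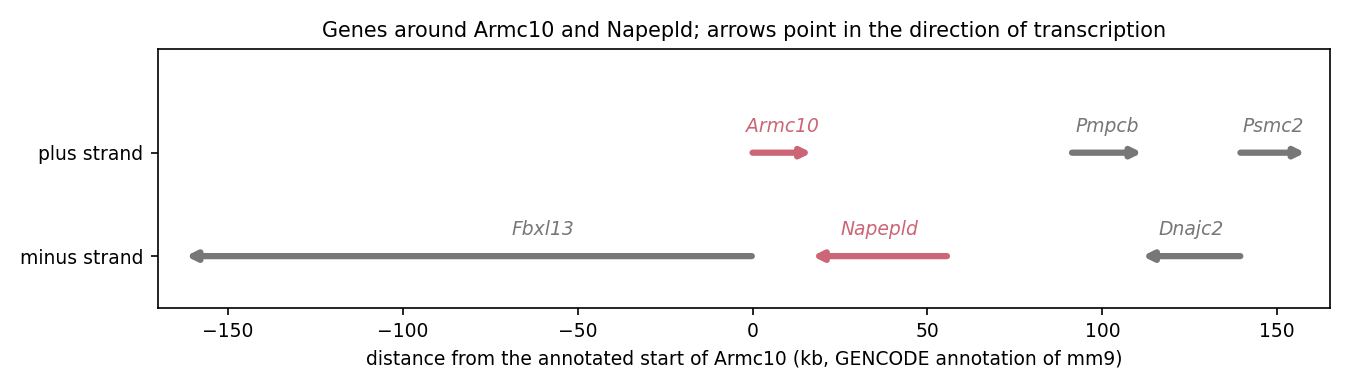
Genes at the proximal edge by distance in kb from the annotated start of Armc10 (x axis) and by strand (y axis), with arrows in the direction of transcription and the 2 described genes in red. Armc10 and Napepld converge with 206 bp between their 3' ends, and Armc10 starts 207 bp from Fbxl13, back to back.

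The deletion takes 1 copy of each promoter. The 250 bases before the start of each gene, from RefSeq on GRCm38.p6 and therefore with other coordinates than those of mm9 above, are shown because the pair is adjacent in the genome but has unlike starts. For Armc10 the window is chr5:21645756-21646005 on the plus strand, and for Napepld it is chr5:21701623-21701872 on the minus strand, both written 5′ to 3′. Capitals mark GC boxes (GGGCGG or its reverse complement CCGCCC) and an ETS-type motif (CCGGAAG or CTTCCGG) in the first, and a YY1-type motif (AAGATGGC or GCCATCTT) in the second.
Armc10: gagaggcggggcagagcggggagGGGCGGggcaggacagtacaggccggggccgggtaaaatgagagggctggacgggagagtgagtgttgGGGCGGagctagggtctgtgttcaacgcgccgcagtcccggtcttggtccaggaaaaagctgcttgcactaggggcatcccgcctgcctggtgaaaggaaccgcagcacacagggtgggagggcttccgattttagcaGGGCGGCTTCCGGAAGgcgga
Napepld: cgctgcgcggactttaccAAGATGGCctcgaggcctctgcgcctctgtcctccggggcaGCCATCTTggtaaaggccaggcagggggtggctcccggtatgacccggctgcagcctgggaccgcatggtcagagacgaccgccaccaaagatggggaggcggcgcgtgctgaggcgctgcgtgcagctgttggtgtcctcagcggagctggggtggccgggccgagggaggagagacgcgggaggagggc

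Both windows were rich in G and C, at 65.6% with 17 CpG for Armc10 and 69.6% with 21 CpG for Napepld. The median was 52.4% over the same 250 bases of all 32851 promoter windows, each of 300 bases in full. The Armc10 window held 3 GC boxes and 2 overlapping ETS-type matches that together span positions -15 to -6 relative to the start. The Napepld window held 2 YY1-type matches on opposite strands, at positions -232 to -225 and -191 to -184. Over these 250 bases of all windows and both strands, 32.7% held a GC box, 6.91% the ETS-type and 1.56% the YY1-type motif. The motifs were chosen after the windows had been read, and a match is a description of letters only. The 300-base windows of Armc10 and Fbxl13 shared 100 bases. The 250 bases before the start of Fbxl13 were chr5:21645606-21645855 on the minus strand. By these windows the RefSeq starts of Armc10 and Fbxl13 lie further apart than the 207 bp between their GENCODE starts on mm9. The mm9 spacing therefore does not refer to the starts of these windows.

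Between 21229319 and 38798252 fragments per library (median 26967127) lay behind the FPKM. The 7 stem and progenitor markers, among them Kit and Procr, summed to 523 to 919 FPKM per library, and the 5 genes of antigens gated out, such as Cd48 and Itga2b, to 1.54 to 12.2 FPKM. The 4 granulocyte markers ranged from 17.1 to 526 summed FPKM in WT and from 0.0329 to 62.7 in 5A3+/del CD150hi HSC, S100a8 alone reached 737 FPKM in a library, and the part of these markers in the results was not tested. The deletion was visible in the 5 other expressed deleted genes, Pmpcb, Dnajc2, Psmc2, Orc5 and Mll5, of which limma called 5 lower in CD150hi HSC and all but Psmc2 lower in the CD150lo (adjusted p = 0.0507) and CD150neg cells (adjusted p = 1.00). The CD150hi HSC library of 5A3+/del mouse 1 stood apart. In it 269 genes, Napepld among them, were listed at 0 that were above 0 in all 28 other libraries, against 1 to 185 (median 10) such genes in each of those. It also held 188 genes at 2 times or more the highest value of any other library, against 0 to 138 (median 11). The next highest of both counts, 185 and 138, were in the CD150hi HSC library of WT mouse 2, also far above the medians. The library of 5A3+/del mouse 1 had 26616975 fragments, close to the median. In the CD150lo HSC and CD150neg MPP libraries of that mouse, both counts were lower, at 22 and 9 and at 57 and 52. The genotype differences of Armc10 and Napepld in CD150hi HSC are also given without 5A3+/del mouse 1. Their percent of WT there and some further values are also given without WT mouse 2.

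Armc10 was well expressed and was lower in the CD150lo HSC and CD150neg MPP of 5A3+/del mice. In WT CD150hi HSC it was at 20.3, 28.7, 16.6, 24.5 and 23.8 FPKM in mice 1 to 5. The 5A3+/del values were 27.9, 7.44, 10.7, 11.8 and 12.4 FPKM in the same order of numbers, which name the mice and do not pair them. Mouse 1 lay among the WT values, while the other 4 lay below every WT library. In WT CD150lo HSC it was at 21.9, 18.5, 20.1, 26.8 and 23.2 FPKM, and in 5A3+/del cells at 8.56, 13.2, 11.4, 12.5 and 12.1 FPKM. In WT CD150neg MPP it was at 19.6, 26.9, 24.9, 26.1 and 24.3 FPKM, and in 5A3+/del cells at 11.0, 12.6, 11.2 and 10.1 FPKM in mice 1 to 4. In these last 2 populations the genotypes did not overlap, as for 0.805% and 0.947% of the genes tested with all 5A3+/del libraries below all WT libraries, against 1.61% in CD150hi HSC, where Armc10 did overlap.

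As a ratio of means, Armc10 in 5A3+/del cells was at 61.6% of WT in CD150hi HSC, from 22.8 ± 4.57 (SD, n = 5) to 14.0 ± 8.00 (n = 5) FPKM, a difference that did not pass (exact permutation p = 0.0635). Without 5A3+/del mouse 1 it was 46.4% (exact permutation p = 0.0159), and without WT mouse 2 it was 65.9% (exact permutation p = 0.127). In CD150lo HSC it was 52.3%, from 22.1 ± 3.15 (n = 5) to 11.5 ± 1.79 (n = 5) FPKM (exact permutation p = 0.00794). In CD150neg MPP it was 46.1%, from 24.4 ± 2.82 (n = 5) to 11.2 ± 1.05 (n = 4) FPKM (exact permutation p = 0.00794). These tests were two-sided over mice, 0.00794 is the smallest p that 5 against 5 or 5 against 4 can give, and the p-values are not adjusted over the 6 tests on the pair of genes. In such sorted bulk samples, less RNA per cell and fewer cells that express a gene cannot be told apart. Between 649 and 3016 fragments per library supported Armc10, so counting error was small beside the spread between libraries.

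Napepld was expressed at a low level and was lower in the CD150lo HSC and CD150neg MPP of 5A3+/del mice. In WT CD150hi HSC it was at 0.871, 2.02, 3.15, 1.82 and 1.24 FPKM, and in 5A3+/del cells at 0, 1.57, 1.34, 0.989 and 1.08 FPKM. The groups overlapped. The value of 0 in mouse 1, from the library that stood apart, allows up to 3 fragments or 0.0285 FPKM by counting error alone, which is 1.57% of the WT mean. In WT CD150lo HSC it was at 3.75, 2.29, 1.94, 1.39 and 2.26 FPKM, and in 5A3+/del cells at 0.0926, 0.758, 0.692, 0.707 and 1.70 FPKM. Only mouse 5 reached the WT range. In WT CD150neg MPP it was at 2.37, 2.35, 2.89, 1.56 and 1.80 FPKM, and in 5A3+/del cells at 0.113, 0.176, 0.506 and 0.458 FPKM. Every 5A3+/del library there lay below every WT library, as for 0.947% of the genes tested.

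**Figure D2:**
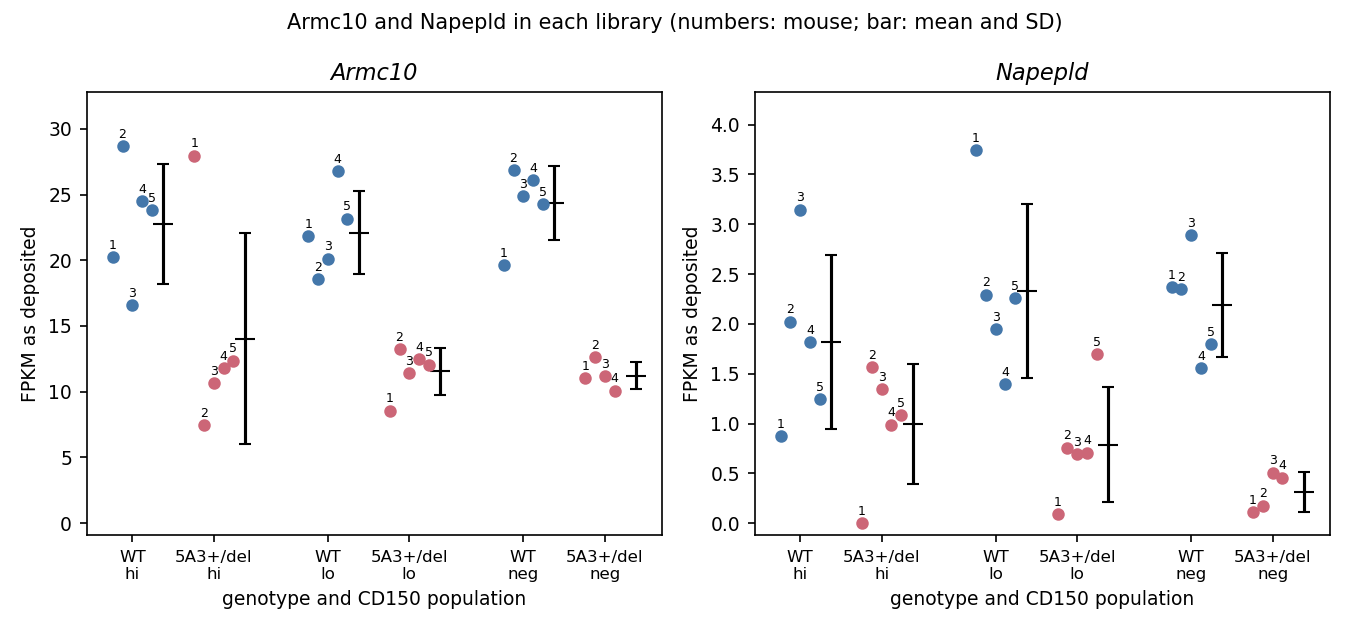
FPKM of Armc10 (left) and Napepld (right) in each library, by genotype and CD150 population on the x axis, with the mouse number above each point and the mean and SD beside each group. Armc10 in CD150hi HSC of 5A3+/del mouse 1 lies at 27.9 FPKM among the WT values, and Napepld in 5A3+/del CD150neg MPP lies at 0.113 to 0.506 FPKM, below all WT libraries. Such a full separation in CD150neg MPP held for 0.947% of the genes tested.

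The ratio of means for Napepld was 54.8% of WT in CD150hi HSC, from 1.82 ± 0.871 (n = 5) to 0.997 ± 0.602 (n = 5) FPKM, which did not pass (exact permutation p = 0.119). In CD150lo HSC it was 33.9%, from 2.33 ± 0.872 (n = 5) to 0.789 ± 0.576 (n = 5) FPKM (exact permutation p = 0.0159). In CD150neg MPP it was 14.3%, from 2.19 ± 0.524 (n = 5) to 0.313 ± 0.198 (n = 4) FPKM (exact permutation p = 0.00794). Without 5A3+/del mouse 1 these were 68.5% (exact permutation p = 0.254), 41.4% (0.0317) and 17.3% (0.0179). The last rests on 5A3+/del mice 2, 3 and 4, for which 0.0179 is the smallest p that the exact permutation can give. Without WT mouse 2 the CD150hi HSC value was 56.4% (exact permutation p = 0.206). Each WT library held 87 to 575 fragments of Napepld and each 5A3+/del library 0 to 193, and of the latter the CD150neg MPP libraries had 11, 18, 53 and 57. The spread between those 4 libraries, a coefficient of variation of 63.0%, exceeded the 17.0% that counting alone would give.

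In the fit across all 15409 genes that passed the filter, neither gene was called at an adjusted p under 0.05 (limma, quantile-normalized log2(FPKM + 1), Benjamini-Hochberg). The calls for 5A3+/del against WT were few, with 0.156% of genes for CD150hi, 0.0324% for CD150lo and 0.0454% for CD150neg cells. Armc10 had a log2 difference of -0.77 ± 0.21 (SE, adjusted p = 0.0988), -0.88 ± 0.21 (0.116) and -1.04 ± 0.22 (0.108) in that order by limma. Napepld had a difference of -0.53 ± 0.23 (adjusted p = 0.320), -0.94 ± 0.23 (0.142) and -1.21 ± 0.24 (0.0725) by limma, on a scale whose pseudocount of 1 compresses a gene of this level. By unadjusted p, Armc10 ranked 132, 28 and 9 and Napepld 1416, 39 and 8 among all genes. With 5A3+/del mouse 1 left out of every population, limma called Armc10 in CD150hi HSC (log2 change -1.03, adjusted p = 0.00625) and in CD150neg MPP (-0.99, adjusted p = 0.0218), and Napepld in CD150hi HSC was at -0.34. The Armc10 change in CD150neg MPP was no larger than with all mice, and the fit takes 1 spread per gene over the 6 groups. With a pseudocount of 0.1 its SE was 0.23 with all mice (log2 change -1.09) and 0.18 without mouse 1 (-1.05). With a pseudocount of 0.1 and without mouse 1, limma also called Napepld in CD150neg MPP (-2.30, adjusted p = 0.0083), which was not called with a pseudocount of 1 (-1.18, adjusted p = 0.0880). Without WT mouse 2 and with a pseudocount of 0.1, limma called neither gene in any population. Armc10 in CD150hi HSC was then at -0.74 (limma adjusted p = 0.231).

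Both genes were then set against 50% of WT, the level that 1 of 2 copies would give at equal output per copy. By 95% intervals not adjusted for their number, Armc10 could not be told from that value, while Napepld in CD150neg MPP lay below it. The latter rests on 5A3+/del libraries with 11, 18, 53 and 57 fragments of Napepld. No interval was set against 50% on the scale with a pseudocount of 1, which compresses Napepld. With a pseudocount of 0.1, Armc10 was at 56.6% (95% interval 41.3 to 77.5%) in CD150hi, 52.4% (38.2 to 71.7%) in CD150lo and 46.8% (33.6 to 65.4%) in CD150neg cells, intervals that all hold 50%. Napepld was at 48.6% (24.8 to 94.97%), 29.8% (15.3 to 58.4%) and 18.5% (9.08 to 37.7%), and the interval for CD150neg MPP does not hold 50%. Without any 1 mouse its upper bound there was between 34.2 and 43.8%. In CD150lo HSC the upper bound was 46.5% without 5A3+/del mouse 5 and above 50% in the 9 other such fits. Without mouse 1 the values in CD150hi HSC were 47.0% (36.9 to 59.8%) for Armc10 and 69.4% (43.1 to 111.8%) for Napepld. Among the other expressed deleted genes, with all mice, the interval for Mll5 in CD150lo HSC (60.7%, 51.4 to 71.6%) did not hold 50% either.

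**Figure D3:**
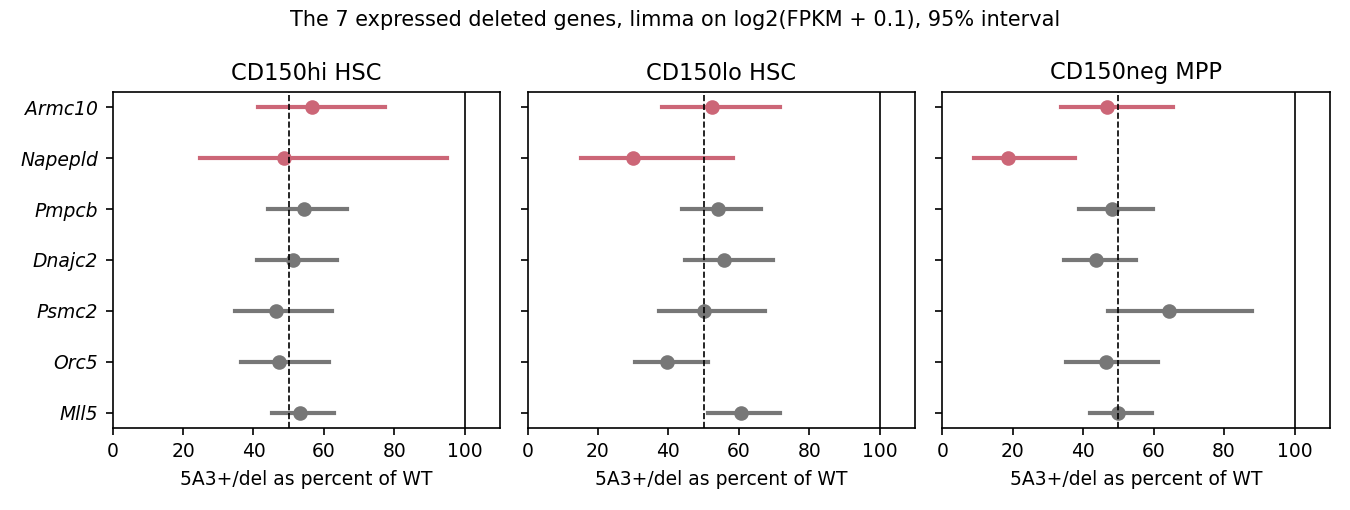
Expression in 5A3+/del cells as percent of WT for the 7 expressed deleted genes in each population, from limma on quantile-normalized log2(FPKM + 0.1), with points for the estimate and lines for the 95% interval. The dashed line is 50%, and Napepld in CD150neg MPP, at 18.5% (9.08 to 37.7%), lies to the left of it. Mll5 in CD150lo HSC, at 60.7% (51.4 to 71.6%), lies to the right.

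Set against the mean of the 5 other expressed deleted genes within the same library, Napepld was lower in 5A3+/del than in WT CD150neg MPP by a log2(FPKM + 0.1) difference of -1.57 (exact permutation p = 0.00794, n = 4 and 5). The same difference was -0.74 in CD150lo HSC (exact permutation p = 0.175) and -0.15 in CD150hi HSC (exact permutation p = 0.913), and neither passed. For Armc10 it was -0.10, 0.01 and 0.19 in CD150neg MPP, CD150lo HSC and CD150hi HSC, with exact permutation p of 0.532, 0.881 and 0.770. Without 5A3+/del mouse 1 both CD150hi HSC values turned sign, to 0.55 for Napepld (exact permutation p = 0.198) and -0.14 for Armc10 (exact permutation p = 0.452), and Napepld in CD150lo HSC was at -0.32 (exact permutation p = 0.357). Armc10 over Napepld, as a log2 ratio, was higher in 5A3+/del than in WT CD150neg MPP by 1.47 (exact permutation p = 0.00794), with 0.76 in CD150lo HSC (0.167) and 0.34 in CD150hi HSC (0.913). Without mouse 1 the ratio differed by 1.21 in CD150neg MPP (exact permutation p = 0.0179, the smallest that the remaining mice can give), by 0.38 in CD150lo HSC (0.349) and, in the other direction, by -0.69 in CD150hi HSC (0.198). With a pseudocount of 1, which weighs low values less, the Napepld difference in CD150neg MPP was -0.36 (exact permutation p = 0.0794) and that of the ratio 0.23 (exact permutation p = 0.317). The difference therefore rests on values well under 1 FPKM.

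Whether the loss differed between populations was tested per mouse on log2(FPKM + 0.1). For Napepld the genotype effect in CD150neg MPP minus that in CD150hi HSC was -1.27 (exact permutation p = 0.127), CD150neg minus CD150lo was -0.56 (0.230) and CD150lo minus CD150hi was -0.53 (0.421), so none of the 3 passed. Without 5A3+/del mouse 1 they were -1.95 (exact permutation p = 0.0179), -0.81 (0.0893) and -0.80 (0.238), and without 5A3+/del mouse 2 the first was -0.72 (exact permutation p = 0.304). Without WT mouse 2 the first was -1.31 (exact permutation p = 0.171). Without mouse 1 the CD150neg differences rest on 5A3+/del mice 2, 3 and 4, for which 0.0179 is the smallest p that the exact permutation can give. For Armc10 the 3 differences were -0.29, -0.15 and -0.12, with exact permutation p of 0.556, 0.444 and 0.770. Without mouse 1 they were 0.09, -0.28 and 0.27 (exact permutation p of 0.786, 0.179 and 0.468), so the first and the last turned sign.

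The labels give libraries of 1 mouse a shared code, which allows each mouse to be followed. Napepld in 5A3+/del mouse 1 was at 0%, 3.98% and 5.16% of the WT mean in CD150hi HSC, CD150lo HSC and CD150neg MPP, the lowest of its genotype in all 3. In mouse 2 it was at 86.2%, 32.6% and 8.04%, in mouse 3 at 73.9%, 29.8% and 23.1%, and in mouse 4 at 54.4%, 30.4% and 20.9%. Mouse 5, which has no CD150neg MPP library, was at 59.5% and 73.0%. The 3 mice numbered 2 to 4 thus had their highest percent in CD150hi HSC and their lowest in CD150neg MPP, and mouse 1 did not. Armc10 in mouse 1 was at 122.7% of the WT mean in CD150hi HSC, 38.7% in CD150lo cells and 45.3% in CD150neg cells, while in the other 4 mice it ranged from 32.7 to 59.8%. The 5 other deleted genes in that CD150hi HSC library of mouse 1 were at 35.6 to 58.3% of WT.

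**Figure D4:**
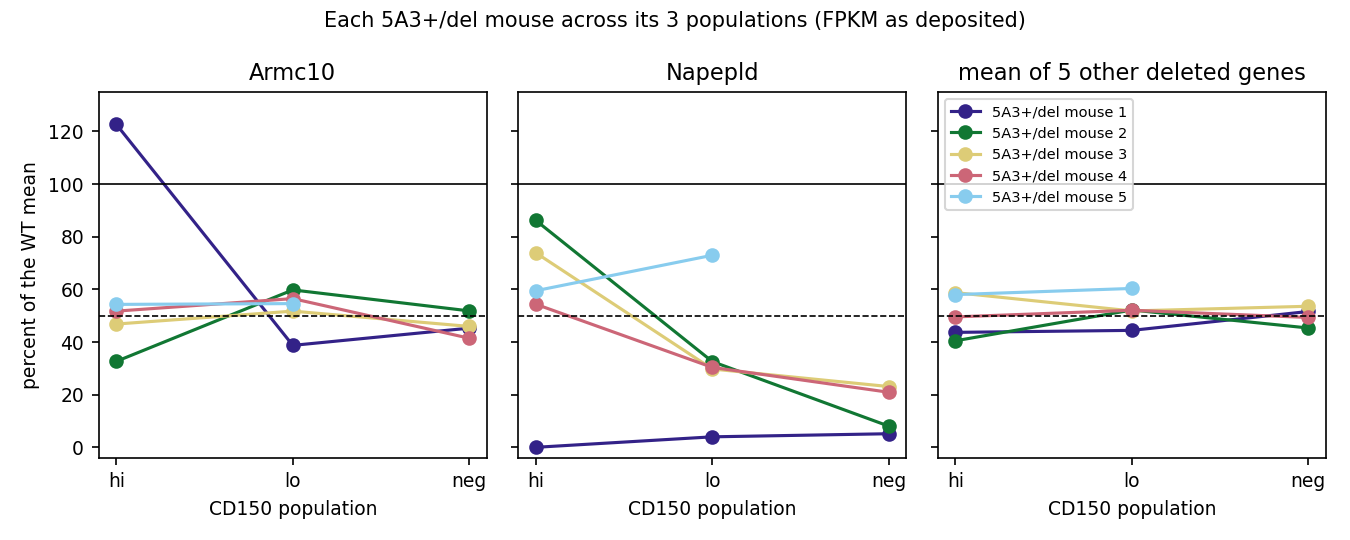
Percent of the WT mean FPKM (y axis) in each 5A3+/del mouse across CD150hi HSC, CD150lo HSC and CD150neg MPP (x axis) for Armc10, Napepld and the mean of the 5 other deleted genes, with 1 line per mouse and a dashed line at 50%. Napepld in mouse 1 lies at 0 to 5.16% in all populations, and Armc10 in mouse 1 lies at 122.7% in CD150hi HSC and below 50% in the others.

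Within WT mice, the level of either gene was not told apart between populations. Mean Armc10 was highest in CD150neg MPP (24.4 FPKM), then CD150hi HSC (22.8) and CD150lo HSC (22.1), and mean Napepld was highest in CD150lo HSC (2.33 FPKM), then CD150neg MPP (2.19) and CD150hi HSC (1.82). The limma contrasts in WT ran from -0.02 to 0.08 on the log2 scale for Armc10 and from -0.08 to 0.25 for Napepld, and none was called, with 3.53% of genes called for CD150lo against CD150hi HSC, 0.188% for CD150neg against CD150lo and 10.0% for CD150neg against CD150hi. In 5A3+/del mice they ran from -0.20 to -0.07 for Armc10 and from -0.51 to -0.17 for Napepld, again without a call, with 3.18%, 0.0389% and 6.16% of genes called. Without mouse 1, Armc10 in 5A3+/del mice was at 0.20 for CD150lo against CD150hi HSC and at 0.09 for CD150neg against CD150hi, the other direction. In FPKM, which is per length, WT Armc10 exceeded Napepld in every library.

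The genes around the 2 proteins were read from 8 lists of 58 genes besides Napepld, of which 45 passed the filter, and limma called 0 of 45 in each population. At an unadjusted p under 0.05 limma gave 7 (15.6%), 2 (4.44%) and 1 (2.22%) of the 45 in CD150hi, CD150lo and CD150neg cells, against 13.1%, 6.87% and 4.27% of all genes. Of the other routes to N-acylethanolamines, 7 of 10 listed genes passed the filter. Abhd4 and Gde1, which act in other routes from the same phospholipids, were at 25.8 ± 5.72 (SD, n = 5) and 10.0 ± 1.54 FPKM in WT CD150neg MPP and at 30.3 ± 8.81 (n = 4) and 10.0 ± 1.64 in 5A3+/del. The median log2 change of the 7 was 0.02, -0.03 and -0.02 in the 3 populations, against 0.00, 0.01 and -0.00 for all genes.

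Among enzymes that break N-acylethanolamines down, Faah had log2 changes of -0.43, -0.34 and -0.07 in CD150hi, CD150lo and CD150neg cells, and Naaa had -0.31, -0.05 and 0.23. The 3 measured enzymes of 2-arachidonoylglycerol, the other main endocannabinoid, were Daglb, which makes it, and Abhd6 and Abhd12, which cleave it, with changes between -0.51 and 0.32. Of the receptors and carriers only 2 of 7 passed the filter. They were Cnr2, the cannabinoid receptor of immune cells, and Fabp5, a fatty acid carrier that had the smallest adjusted p of all list genes in CD150hi HSC (log2 change -0.82, limma adjusted p = 0.0782, from 3.71 ± 0.980 to 1.62 ± 0.622 FPKM, n = 5 each). The log2 change of Fabp5 was -0.11 in CD150lo HSC and -0.25 in CD150neg MPP.

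All 10 armadillo relatives of Armc10 passed the filter, with median changes of 0.20, 0.08 and 0.06 and, in CD150hi HSC, single values from -0.33 to 0.60. Armcx4 (0.60) and Armcx2 (0.50), named after their values were seen, were the highest there (limma unadjusted p = 0.00247 and 0.0036, adjusted p = 0.138 and 0.155), and none of the 10 was called. The 4 most abundant were Gprasp1, Bhlhb9, Armc1 and Armcx3, and their log2 changes lay between -0.33 and 0.23. The 6 measured genes of mitochondrial transport, among them the Miro gene Rhot1, the adaptors Trak1 and Trak2 and the motor Kif5b, had changes between -0.15 and 0.25 in the 3 populations. The 8 genes of mitochondrial fission and fusion had medians of -0.10, -0.14 and -0.10. Fis1, an outer membrane receptor in fission, was at -0.48 in CD150hi HSC (limma adjusted p = 0.126), -0.09 in CD150lo HSC and 0.07 in CD150neg MPP. Of the AMPK subunits and Trp53, 7 of 8 passed the filter, and Trp53, the gene of p53, was at 0.04, 0.03 and 0.10.

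Over the 29 libraries, the 5 genes whose log2(FPKM + 1) was most correlated with Armc10 were Dnajc2 (Pearson r = 0.86), Orc5 (0.78), Psmc2 (0.74), Pmpcb (0.72) and Mll5 (0.70), which are the 5 other expressed deleted genes, while Napepld came 80th (0.52). For Napepld they were Eif1 (0.74), Dnajc15 (0.73), Dnajc2 (0.73), Mll5 (0.72) and Orc5 (0.71), with Pmpcb 6th, Psmc2 16th and Armc10 104th. All 29 libraries enter each r, and they share the genotype split. After the 6 group means were taken out, none of the other deleted genes was among the 5 nearest. For Armc10 these were then Armcx6 (0.81), Gm5544 (0.79), Wdr55 (0.78), Asnsd1 (0.73) and Glra4 (0.73). Each of the 5 was at 2.05 to 4.60 times its highest value elsewhere in the CD150hi HSC library of 5A3+/del mouse 1, and without that library their r was 0.33 to 0.60. Napepld and Armc10 had r = -0.45 with all libraries and -0.19 without that one. For Napepld the 5 nearest were Tmem48 (0.75), Ssh2 (0.71), Gm340 (0.71), Pgam1-ps2 (0.70) and 1700109H08Rik (0.69), and without that library their r was 0.58 to 0.68.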

How the data were processed

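The authors amplified total RNA of each sorted population before library preparation, sequenced paired ends and mapped them to mm9. The submitters' processing notes name Bowtie version 0.12.2 and HTSeq. The authors deposited FPKM per gene, not quantile normalized. Their own measure, exon coverage, was not used here. The RNA amplification and 10 PCR cycles can drop or inflate single genes in a library.

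From the deposited FPKM, fragments were recovered with the exon lengths of the GENCODE annotation of mm9 (29279 of 30025 genes matched). Of values worth up to 10 fragments, 98.16 to 98.73% per library came out whole within 0.02 of a fragment. Amplified fragments are not independent molecules, so floors cover counting error only. The fit kept the 15409 genes that reached an FPKM of 1 in 4 or more of the 29 libraries. Their values were transformed as log2(FPKM + 1), quantile normalized and fitted with limma version 3.58.1 in R version 4.3.3, as 6 group means over all libraries, with Benjamini-Hochberg adjustment over all genes and a threshold of 0.05. Single values were tested by exact two-sided permutation of mice (Python version 3.11.15). Groups came from the genotype and cell type in the labels.

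The 2 genes, lists and tests were chosen with earlier results of these data known. The named genes are the 2 genes, the other expressed deleted genes and Fbxl13, up to 4 genes per list by mean FPKM, and the 5 genes most like each member. Libraries with 1 mouse code in the labels come from 1 animal, and their deviations correlated with a median r of 0.079 over 28 pairs.

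On simulated data for CD150hi HSC (15409 genes, 200 lowered by a log2 value of 1), the fit recovered 131 of these (65.5%) along with 7 genes that had not been changed. Alternatives were the pseudocount, filter, normalization, fit, blocks and leaving out each mouse.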

Additional observations from a re-analysis of the deposited data

Results flagged for a closer look

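Armc10 in the CD150hi HSC library of 5A3+/del mouse 1, at 27.9 FPKM, was far from the 4 other 5A3+/del libraries, at 7.44 to 12.4 FPKM. Its gap to the nearest was 0.76 of the range of the group, above the 95% critical value of Dixon's test for 5 samples. Chance flags about 1 in 20 groups, and 1 of the 12 groups of the 2 genes was flagged. The same library had 0 fragments of Napepld and 269 genes, Napepld among them, listed at 0 only there.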

How the results depend on the processing

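Outside the leaving out of mice, 8 results on the 2 genes changed their direction or their side of the threshold. With median scaling, Armc10 in WT CD150lo minus CD150hi HSC was 0.0057 on the log2 scale. As a mean of log2(FPKM + 0.1), Armc10 in CD150hi HSC was at 56.7% of WT and passed (exact permutation p = 0.0476), and as a ratio of medians it was at 44.6% in CD150neg MPP and did not pass (exact permutation p = 0.0635). With a pseudocount of 1, the difference from the 5 other deleted genes was 0.39 for Napepld in CD150hi HSC, -0.034 for Armc10 in CD150lo HSC and -0.36 for Napepld in CD150neg MPP, and the Armc10 over Napepld ratio differed by -0.26 in CD150hi HSC and 0.23 in CD150neg MPP. Neither gene was called by limma for genotype under any of the 9 other settings with all mice.

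Without 5A3+/del mouse 1, limma called Armc10 in CD150hi HSC and CD150neg MPP, its percent of WT passed in CD150hi HSC, and so did the Napepld difference of CD150neg MPP from CD150hi HSC. Of the permutation-tested CD150hi HSC values, 5 turned sign (Armc10 and Napepld against the other deleted genes, their ratio, and both Armc10 genotype differences from CD150hi HSC). The limma contrasts of Armc10 in 5A3+/del CD150lo HSC and CD150neg MPP against CD150hi HSC also turned sign, to 0.20 and 0.094. Both CD150hi HSC estimates crossed 50%, to 47.0% for Armc10 and 69.4% for Napepld. Without 5A3+/del mouse 5, Napepld in CD150lo HSC passed against the 5 other deleted genes (-1.01), in the ratio (1.07) and against 50% (23.5%). Without WT mouse 1, Napepld in CD150hi HSC passed at 48.5% of WT (exact permutation p = 0.0397). The ranges over mice left out follow for results whose direction or call changed or whose value moved by over 1.5 times. For limma with genotype, Napepld ran from -0.65 to -0.34 in CD150hi HSC, and Armc10 from -1.03 to -0.60 in CD150hi HSC and from -1.13 to -0.99 in CD150neg MPP. Between populations of WT, Armc10 ran from -0.13 to 0.12 (CD150lo minus CD150hi), -0.0093 to 0.16 (CD150neg minus CD150lo) and -0.088 to 0.13 (CD150neg minus CD150hi), and Napepld from 0.0073 to 0.37, -0.17 to 0.041 and 0.048 to 0.25 in the same order. Between populations of 5A3+/del, Armc10 ran from -0.36 to 0.20, -0.11 to -0.033 and -0.43 to 0.094 in that order, and Napepld from -0.29 to -0.062 and -0.46 to -0.18 for the first and the second. Percent of WT in CD150hi HSC ran from 46.4 to 68.9% for Armc10 and from 46.9 to 68.5% for Napepld. The difference from the 5 other deleted genes ran from -0.14 to 0.31 (Armc10, CD150hi), -0.035 to 0.062 (Armc10, CD150lo), -0.21 to -0.040 (Armc10, CD150neg), -0.50 to 0.55 (Napepld, CD150hi) and -1.01 to -0.32 (Napepld, CD150lo), and that of the ratio from -0.69 to 0.80 (CD150hi) and 0.38 to 1.07 (CD150lo). The genotype effect between populations ran from -0.36 to 0.27 and -0.80 to -0.13 (Armc10 and Napepld, CD150lo minus CD150hi), -0.28 to -0.054 and -0.81 to -0.21 (CD150neg minus CD150lo) and -0.61 to 0.089 and -1.95 to -0.72 (CD150neg minus CD150hi). Estimates set against 50% ran from 47.0 to 64.5% for Armc10 and 41.4 to 69.4% for Napepld in CD150hi HSC and from 23.5 to 40.2% for Napepld in CD150lo HSC.

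The number of genes that limma called over the whole table for genotype was 24, 5 and 7 in CD150hi, CD150lo and CD150neg cells. In CD150hi HSC it was 15 with a pseudocount of 0.1, 43 with 0.01, 75 without the filter and 100 with the limma trend, and from 4 to 40 without 1 mouse, the ends being WT mice 4 and 5. In CD150lo HSC it was 8, 9, 16 and 31 in that order, and from 3 to 77, the highest without WT mouse 5. In CD150neg MPP it was 4 without the filter, and from 3 to 8. A limma fit within each population called 0 genes, with 1277, 1291 and 729 at an unadjusted p under 0.05. With mice as a replicate block it was 56 and 8 in CD150hi and CD150lo HSC. A replicate block by number, which joins different animals (14 pairs of WT and 5A3+/del libraries, r from -0.034 to 0.081, none over 0.1), gave 8 in CD150lo HSC and 4 in CD150neg MPP. No block changed a call of Armc10 or Napepld. The cause of these changes was not tested. Of the 2 genes and 6 groups, fragments were fewest for Napepld in 5A3+/del CD150neg MPP (139 in all), where counting alone gives a coefficient of variation of 17.0% against 63.0% between libraries.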
